A study of Mus musculus with 3 samples.

Results

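The proteasome subunit genes are the 43 genes of 32285 in the count tables whose symbols begin with Psma, Psmb, Psmc or Psmd and end in a number, or are Psme1 to Psme4. They were matched by name and not by level, but the set was chosen with earlier results of these data known. Single-cell RNA sequencing (10x 3' chemistry) had been carried out on lineage-negative bone marrow of mice, with 1 library of each of 3 genotypes. The first library came from Lztr1fl/fl;Mx1Cre+ mice, in which Cre deletes Lztr1, the adaptor that brings RIT1 and related RAS proteins to the CUL3 ubiquitin ligase. The second came from Rit1M90I/+;Mx1Cre+ mice, which carry an altered allele of the small GTPase RIT1. The control came from Rit1M90I/+Mx1Cre- mice, whose title also calls them wild type. By this label the control carries the same Rit1 allele without Cre, and whether the allele is silent without Cre was not checked here. The label of the Lztr1 knockout names no Rit1 allele, so that comparison may also differ at Rit1. Mx1-Cre is driven by an interferon-responsive promoter and is not limited to one blood lineage. All mice were 8 weeks old when they were given 3 doses of pIpC, a double-stranded RNA that induces interferon, at 12 mg/kg, so the control had the same treatment, and marrow was taken 4 weeks later. Live cells negative for CD3, CD11b, Gr1, B220 and Ter119 were sorted. The sources used here do not give the number of mice behind each library. Cre was present in both mutants but absent from the control, so its own effect and that of either allele cannot be told apart. Both comparisons share the control library.

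The proteasome is the large protease that degrades proteins tagged with ubiquitin, among them substrates of cullin ligases. Its core particle is a barrel of alpha and beta rings, and the proteolytic sites lie on Psmb5, Psmb6 and Psmb7. A regulatory particle of ATPases (Psmc genes) and other subunits (Psmd genes) binds ubiquitin chains, unfolds the substrate and feeds it into the barrel. In lymphoid cells, and in other cells under interferon, Psmb8, Psmb9 and Psmb10 take the place of Psmb5, Psmb6 and Psmb7 in newly assembled particles. This immunoproteasome produces many of the peptides shown on MHC class I, and the activator made of Psme1 and Psme2 is induced along with it.

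The kept cells numbered 2338 in the Lztr1 knockout library, 9351 in the Rit1-M90I library and 7262 in the control library, with 27617480, 79554199 and 62250764 UMIs (distinct mRNA tags) in the same order. UMIs per kept cell had a median of 9922.5 in the Lztr1 knockout, 6584 in Rit1-M90I and 6856.5 in the control. Between libraries 2 kept barcodes were shared by the Lztr1 knockout and the control, 9 by Rit1-M90I and the control, and 6 by both mutants. Lztr1 itself stood at 6.34 CPM, UMI counts scaled to a common library total, in the Lztr1 knockout, 15.2 CPM in Rit1-M90I and 17.3 CPM in the control. Where the deleted exons lie relative to these 3' tags was not checked here. Cell populations are marker gates. A cell joined the gate of which it showed at least 3 of 8 markers, with a lead of at least 2 over any other list, which left 891, 3705 and 2543 cells of the same libraries in no gate. Levels are given for the 12 gates with at least 10 cells in every library, and genotypes are compared within the 6 gates with at least 40. The monocyte gate carried more early neutrophil marker UMIs than markers of its own list in each library (4821 against 3017 CPM in the Lztr1 knockout, 5356 against 3345 in Rit1-M90I and 3930 against 3202 in the control), and is read here as a mixed granulocyte and monocyte gate. Where monocytes are named below, the cells of this mixed gate are meant. The B lineage gate of Rit1-M90I had 3 dendritic cell markers among its 10 leading genes. With 1 library per genotype there is no test, and every interval in parentheses is a 95% interval for counting error, which leaves out the spread between mice and between cells.

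Of the 43 members, 41 had a mean of at least 20 CPM over the libraries. The other 2 are subunits of specialised proteasomes. Psmb11, the catalytic subunit of thymic cortical epithelium, had 1 UMI in the Lztr1 knockout and none in the other libraries, where the floor of 3 UMIs is 0.0377 CPM in Rit1-M90I and 0.0482 CPM in the control. Psma8, the alpha subunit of the testis, was at 3.87 CPM in the Lztr1 knockout (107 UMIs), 1.72 CPM in Rit1-M90I (137 UMIs) and 3.76 CPM in the control (234 UMIs). Its level in Rit1-M90I was 0.46 (0.37 to 0.57) of that in the control, but it lies under the 20 CPM filter and enters no count. Each UMI marks the 3' end of an mRNA, so these levels do not scale with gene length, although capture may still differ between genes. A few members overlap another GENCODE gene on the same strand, such as Psma2 with AW209491 and Psmb5 with Mir686, which may affect their counts. The remaining members are 7 alpha ring, 7 beta ring, 6 ATPase and 11 non-ATPase genes, called here the 31 constitutive subunits, with 3 immunoproteasome genes, 3 assembly chaperones and 4 activators.

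The core particle genes were the more abundant. The 14 constitutive core genes summed to 3690.0 CPM in the Lztr1 knockout, 3677 CPM in Rit1-M90I and 3720 CPM in the control, and the 17 regulatory particle genes to 2065, 1931 and 2009 CPM. In the alpha ring the highest mean level was that of Psma7, at 563 CPM, and the lowest that of Psma6, at 191 CPM. In the beta ring Psmb1, at 319 CPM, was the highest and Psmb7, which carries the trypsin-like site, the lowest at 127 CPM. Among the ATPases Psmc3 had 156 CPM and Psmc1 81.9 CPM, and among the non-ATPase subunits Psmd7 had 192 CPM and the scaffold subunit Psmd3 had 77.2 CPM. Psmb8 averaged 390 CPM over all kept cells, more than its constitutive partner Psmb5 at 242 CPM, while Psmb9 at 160 CPM and Psmb10 at 109.7 CPM lay below their partners Psmb6 (214 CPM) and Psmb7.

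Erythroid progenitors held the most constitutive proteasome mRNA. For comparisons between gates the CPM was taken over non-immunoglobulin UMIs, because immunoglobulin mRNA fills most of a plasma cell's UMIs. On that scale the 31 constitutive subunits summed to 6438 CPM in the erythroid gate of the Lztr1 knockout, 6423 CPM in that of Rit1-M90I and 6924 CPM in that of the control, which was the highest gate in each library. Early neutrophils followed with 6164, 6389 and 6006 CPM in the same order, nearly level with erythroid cells in Rit1-M90I. The basophil and mast cell gate (3770, 3594 and 3651 CPM) and the T cell gate (3467, 3792 and 3874 CPM) were the lowest, and stem and multipotent cells had 4849, 3907 and 4186 CPM. The gap between erythroid and basophil sums was larger than the gap between libraries within either gate.

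Member by member, the erythroid gate was the highest of the 12 by mean level for 20 of the 41 measured members, 17 of them constitutive, where it was the highest for 19.1% of all genes. The basophil and mast cell gate was the lowest for 17 members and 11.5% of all genes, and the T cell gate for 13 members and 15.8% of all genes. Against the mean of the other gates, 8 members were more than 1.5-fold higher in the erythroid gate in all 3 libraries, where 13.4% of all genes tested were. They are Psmb7, Psmc2, Psmd1, Psmd3, Psmd7, Psmd5, Psmd9 and Psme3, which is 19.5% of the 41. Psmd7, a lid subunit that pairs with the deubiquitinase Psmd14, was the most abundant of them, with 308 CPM in the Lztr1 knockout, 281 in Rit1-M90I and 335 in the control erythroid cells, a mean of 308 CPM against 195 CPM in the next gate, early neutrophils, and 82.1 CPM in T cells. No constitutive member was 1.5-fold lower in the erythroid gate in every library. In the basophil and mast cell gate 9 members were 1.5-fold lower in all 3 libraries, where 12.3% of all genes were, and none was higher, where 13.6% were. The 9 are Psma3, Psmb6, Psmb8, Psmb9, Psmb10, Psmc5, Psmd1, Psmd3 and Psme2. The count is 22.0% of the 41.

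A few constitutive subunits peaked elsewhere. Psma7 was highest in the monocyte gate, with 827 CPM in the Lztr1 knockout, 784 in Rit1-M90I and 791 in the control, against a mean of 610 CPM in early neutrophils. It was the only member 1.5-fold higher there in all 3 libraries (6.20% of all genes were). Psmb5, the chymotrypsin-like site, was highest in early neutrophils, with 320 CPM in the Lztr1 knockout, 335 in Rit1-M90I and 320 in the control, and was the only member past 1.5-fold in that gate (4.99% of all genes). In T cells Psmd1 and Psmd7 were 1.5-fold lower in every library, where 13.6% of all genes were, and no member was higher (8.46%). In the megakaryocyte gate Psmb8 and Psme2 were lower (9.25%) and none was higher (5.51%), and in plasmacytoid dendritic cells Psmd10 was higher (7.26%) and none was lower (4.74%). No member was 1.5-fold lower in early neutrophils (17.0%) or in the monocyte gate (7.10%). In 5 further gates no member passed in either direction. The shares of all genes higher and lower there were 3.61 and 5.98% in stem and multipotent cells, 3.51 and 5.81% in lymphoid progenitors, 6.01 and 6.30% in B lineage cells, 10.6 and 17.5% in plasma cells, and 7.76 and 7.95% in NK cells. Some neighbours in these orders cannot be ranked, such as the monocyte gate (mean 222 CPM) and early neutrophils (221 CPM) for Psma1.

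**Figure D1:**
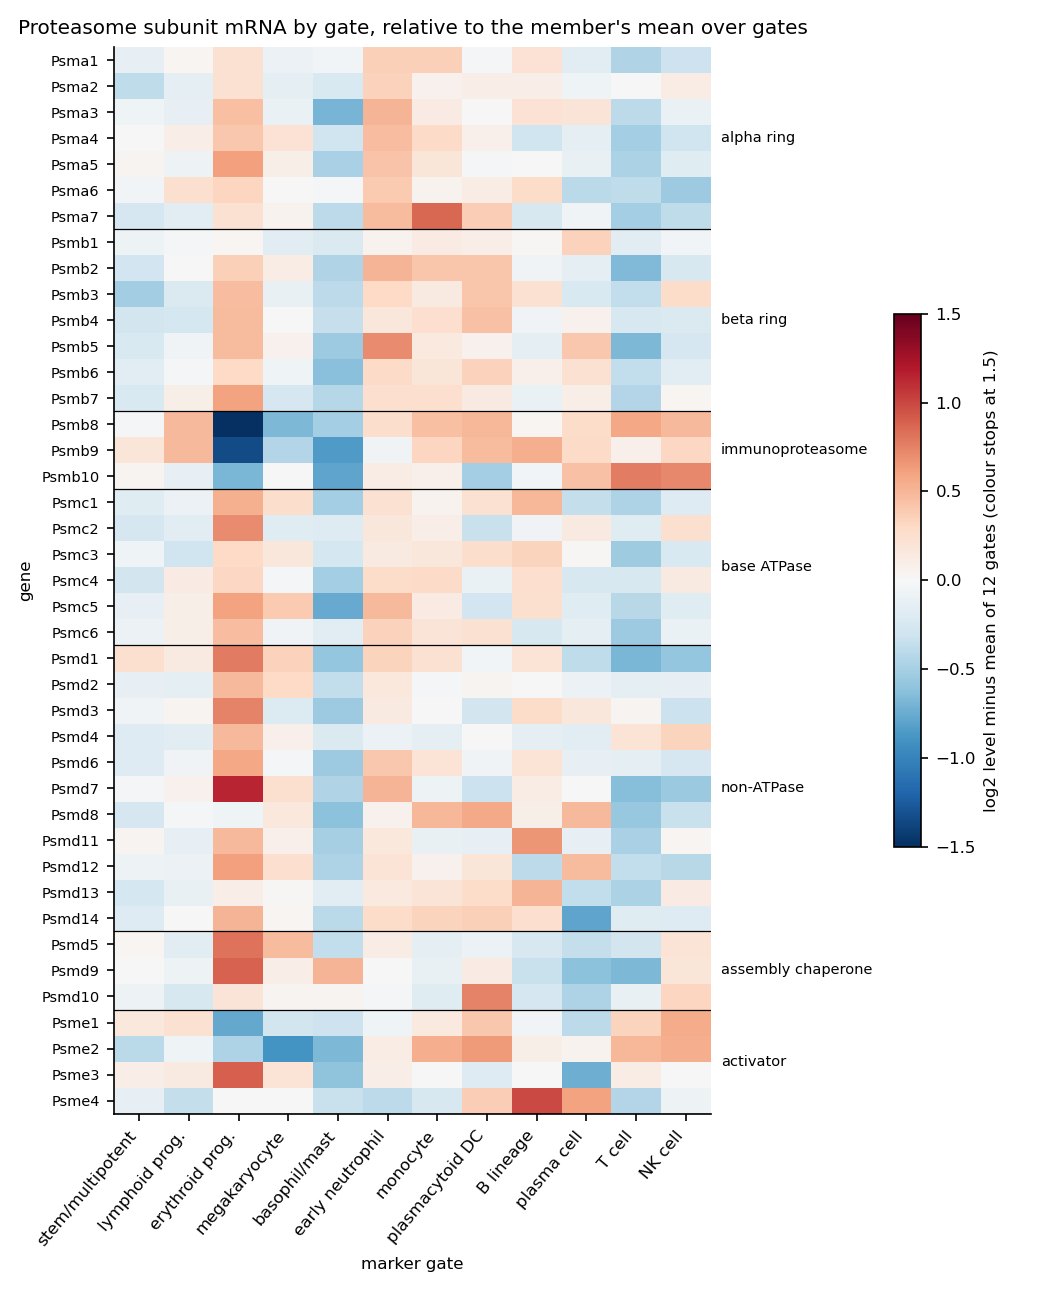
Level of the 41 measured members (rows, by subcomplex) in 12 marker gates (columns). Colour is the log2 level on non-immunoglobulin UMIs, averaged over the 3 libraries, minus the member's mean over the gates. Most constitutive rows are red in the erythroid column and blue in the basophil and mast cell column, whereas Psmb8, Psmb9, Psmb10, Psme1 and Psme2 are blue in the erythroid column.

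The immunoproteasome genes and the interferon-inducible activator followed another order. Over the 12 gates, Pearson's r of a member's mean log2 level with the constitutive median was 0.95 for Psma5 and was lowest for Psmb8 (-0.41), Psme1 (-0.39), Psmb10 (-0.35), Psmb9 (-0.18) and Psme2 (0.00), and leaving out plasma cells left all 5 below the other members. The gates share libraries and depth, so these are descriptions. Psmb8 and Psmb9 lie together on chromosome 17, with the peptide transporter genes Tap1 and Tap2 (Psmb8 at 34197721 to 34201454, plus strand; Psmb9 at 34181987 to 34187764, minus strand), and the annotated starts of Psmb9 and Tap1 are 211 bases apart. Psmb10 is on chromosome 8 (105935735 to 105938444, minus strand). Psme1 (55578123 to 55581529, plus strand) and Psme2 (55587441 to 55591113, minus strand) neighbour each other on chromosome 14. These are GENCODE gene bounds on GRCm38, the build that mm10 names.

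Promoters of the 3 immunoproteasome genes, of Psme1 and of 2 constitutive partners are shown because these groups part in the gates. Each window runs from 250 bases before to 50 after the start that RefSeq gives (GRCm38.p6), read 5′ to 3′ on the gene's strand. The GENCODE starts differ. By the GENCODE bounds the Psmb8, Psmb9 and Psme1 windows lie wholly inside the gene, downstream of its start. The sequence before those GENCODE starts is outside these windows and was not searched for these genes. Capitals mark the letters TTCNNNGAA of the gamma-activated site, the interferon response element (GAAA, any pair of bases, GAAA) and TGACNNNGC of the antioxidant response element core, the motif read by Nfe2l1 and Nfe2l2. Each was searched on both strands, and so was CCAAT, which is left in lower case. In this set no motif overlaps another.
Psmb8 (chr17:34197945-34198244, plus strand): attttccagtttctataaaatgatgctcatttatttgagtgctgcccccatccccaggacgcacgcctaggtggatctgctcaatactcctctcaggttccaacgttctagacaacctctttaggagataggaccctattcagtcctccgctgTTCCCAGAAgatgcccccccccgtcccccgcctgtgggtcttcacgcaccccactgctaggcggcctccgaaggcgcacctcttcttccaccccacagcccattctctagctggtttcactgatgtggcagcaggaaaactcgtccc
Psmb9 (chr17:34187281-34187580, minus strand): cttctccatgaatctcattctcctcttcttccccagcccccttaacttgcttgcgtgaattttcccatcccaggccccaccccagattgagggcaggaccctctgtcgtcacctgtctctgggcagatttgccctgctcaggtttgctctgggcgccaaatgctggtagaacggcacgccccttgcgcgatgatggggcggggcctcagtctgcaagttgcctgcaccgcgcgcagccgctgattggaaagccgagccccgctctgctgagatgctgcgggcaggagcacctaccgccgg
Psmb10 (chr8:105938343-105938642, minus strand): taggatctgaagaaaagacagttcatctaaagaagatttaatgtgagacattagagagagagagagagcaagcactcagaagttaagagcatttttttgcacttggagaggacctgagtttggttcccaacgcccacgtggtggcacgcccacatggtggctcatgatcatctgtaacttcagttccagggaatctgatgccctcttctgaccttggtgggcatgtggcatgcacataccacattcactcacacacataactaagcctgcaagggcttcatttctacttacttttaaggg
Psme1 (chr14:55578244-55578543, plus strand): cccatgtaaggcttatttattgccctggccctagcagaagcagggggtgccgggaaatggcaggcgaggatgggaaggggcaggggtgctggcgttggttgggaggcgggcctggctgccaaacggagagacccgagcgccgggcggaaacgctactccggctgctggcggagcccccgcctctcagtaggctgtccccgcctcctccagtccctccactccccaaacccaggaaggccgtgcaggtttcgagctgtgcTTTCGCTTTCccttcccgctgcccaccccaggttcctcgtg
Psmb5 (chr14:54617946-54618245, minus strand): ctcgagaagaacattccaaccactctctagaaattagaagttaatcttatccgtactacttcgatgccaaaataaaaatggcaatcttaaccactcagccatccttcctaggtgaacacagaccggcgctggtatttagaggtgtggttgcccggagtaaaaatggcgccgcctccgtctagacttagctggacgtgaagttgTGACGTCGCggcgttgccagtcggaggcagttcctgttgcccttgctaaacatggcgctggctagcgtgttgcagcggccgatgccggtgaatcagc
Psmb6 (chr11:70525107-70525406, plus strand): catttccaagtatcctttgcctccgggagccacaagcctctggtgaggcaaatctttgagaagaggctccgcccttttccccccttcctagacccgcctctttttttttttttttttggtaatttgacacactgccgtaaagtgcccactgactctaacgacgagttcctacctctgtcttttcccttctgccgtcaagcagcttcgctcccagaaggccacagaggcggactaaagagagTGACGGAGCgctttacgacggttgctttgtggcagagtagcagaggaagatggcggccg

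Of the 43 members 36 had such a window, and 1 window a gene was searched. The gamma-activated site was found in 2 of them (Psmb8 and Psmd2), against 8.47% of 27025 promoters of the same length. The interferon response element was found in 4 (Psmb3, Psmd4, Psmd9 and Psme1), against 3.49% of promoters, and the antioxidant response element core in 6 (Psmb5, Psmb6, Psmc6, Psmd12, Psmd9 and Psme4), against 12.5%. CCAAT was found in 14, among them Psmb9, against 37.9% of promoters. The capitalised motifs were in neither the Psmb9 nor the Psmb10 window. A match is a run of letters and not a site shown to be bound.

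Psmb8 had the widest range between gates of the 41 measured members. In erythroid progenitors it stood at 105.9 CPM in the Lztr1 knockout, 96.6 in Rit1-M90I and 118 in the control. T cells had 580.5, 642 and 645 CPM in the same order, and lymphoid progenitors 565, 552 and 628. The next lowest gate was the megakaryocyte gate, with 229, 269 and 265 CPM, so the erythroid gate was the lowest in every library. The mean over libraries of the highest gate, T cells, was 5.83 times that of the lowest. Psmb9 behaved alike, with 73.7, 54.4 and 71.7 CPM in erythroid progenitors against 259, 237 and 286 CPM in lymphoid progenitors of the same libraries. Psmb10 had 72.4, 63.4 and 82.7 CPM in erythroid progenitors and 65.0, 61.9 and 73.4 CPM in basophils and mast cells, against 226, 227 and 195 CPM in T cells and 182, 204 and 239 CPM in NK cells. All 3 were more than 1.5-fold lower in the erythroid gate in every library, as was Psme1, and 18.3% of all genes tested were.

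The constitutive partners were not low in erythroid cells. Psmb5 had 271 CPM there in the Lztr1 knockout, 257 in Rit1-M90I and 291 in the control, and Psmb6 had 236, 236 and 250 CPM. Psmb7 had 161, 158 and 173 CPM, above the other 11 gates in all 3 libraries. As a share of the UMIs of all 6 catalytic genes, the immunoproteasome genes made up 27.4% (26.4 to 28.4) in erythroid progenitors of the Lztr1 knockout, 24.7% (24.0 to 25.5) in those of Rit1-M90I and 27.6% (26.9 to 28.3) in those of the control. T cells had the highest share, at 78.4% (71.1 to 84.7), 74.0% (71.2 to 76.7) and 73.8% (71.5 to 76.0) in the same order. Lymphoid progenitors had 64.9, 67.4 and 66.3%, stem and multipotent cells 61.6, 65.2 and 64.8%, the mixed monocyte gate 60.8, 62.7 and 63.1%, and early neutrophils 53.4, 53.3 and 55.4%. The erythroid gate thus lay below the 11 other gates in each library, with no overlap of intervals.

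The 3 catalytic pairs did not share 1 ratio. Psmb8 made up 28.1% of Psmb8 and Psmb5 UMIs in erythroid progenitors of the Lztr1 knockout, 27.3% in those of Rit1-M90I and 28.8% in those of the control, and 90.0, 81.5 and 81.9% in T cells. Psmb9 with Psmb6 gave 23.8, 18.7 and 22.3% in erythroid progenitors and 58.0, 57.9 and 58.0% in lymphoid progenitors. Psmb10 with Psmb7 gave 31.1, 28.6 and 32.4% in erythroid progenitors, against 77.8, 76.2 and 68.9% in T cells. In lymphoid progenitors the Psmb8 pair stood at 72.9, 77.4 and 76.9% whereas the Psmb10 pair stood at 52.2, 53.0 and 44.3%. Over pairs and libraries the erythroid shares ran from 18.7 to 32.4%. B lineage cells differed between libraries, with 67.6% (55.7 to 78.0) in 16 cells of the Lztr1 knockout, 68.0% (61.1 to 74.3) in 60 cells of Rit1-M90I and 53.3% (47.5 to 59.0) in 98 cells of the control.

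**Figure D2:**
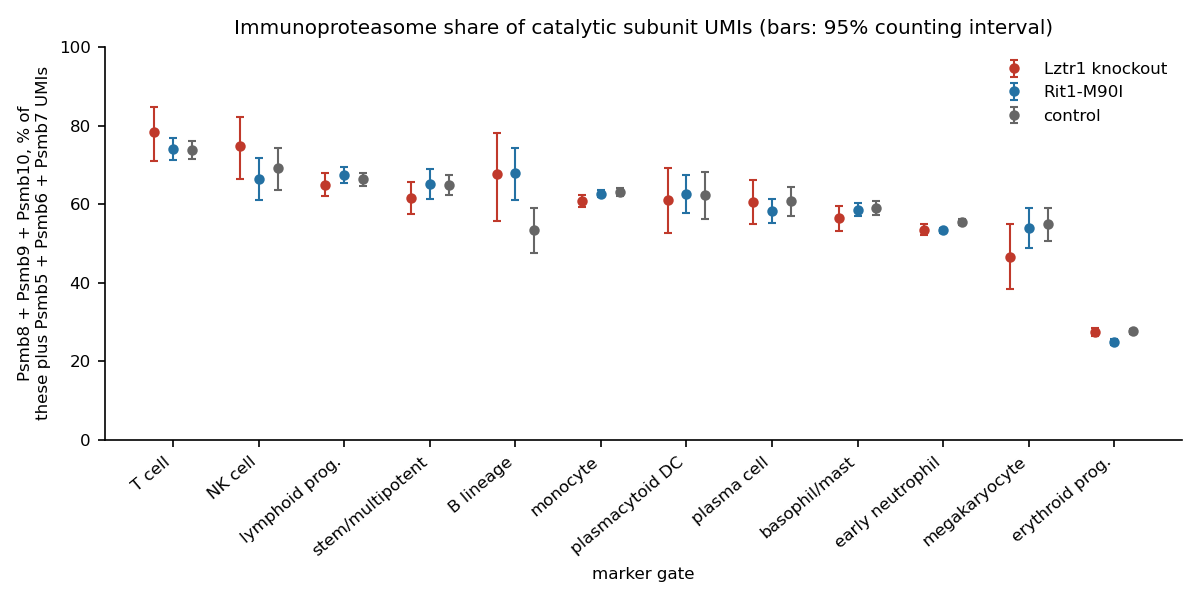
Psmb8, Psmb9 and Psmb10 UMIs as a percentage of these plus Psmb5, Psmb6 and Psmb7 UMIs (y axis) in 12 marker gates (x axis, by mean share), for the Lztr1 knockout (red), Rit1-M90I (blue) and control (grey) libraries, with exact 95% counting intervals. The erythroid gate stands apart at 24.7 to 27.6%, and T cells are the highest at 73.8 to 78.4%.

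Among the activators, Psme1 and Psme2 cap the core particle without ATP, and Psme1 had its lowest mean in erythroid cells, as Psmb8 and Psmb9 did. Psme1 had 275 CPM in erythroid progenitors of the Lztr1 knockout, 238 in those of Rit1-M90I and 237 in those of the control, and its highest mean, 643 CPM, in NK cells. Psme2 was highest in plasmacytoid dendritic cells, at 223, 313 and 275 CPM, and lowest in the megakaryocyte gate, at 105, 67.9 and 87.6 CPM, with 125, 110.2 and 126 CPM in erythroid progenitors. Although the proteins form mixed rings, Psme1 UMIs outnumbered Psme2 UMIs 2.38-fold in the Lztr1 knockout, 2.33-fold in Rit1-M90I and 2.17-fold in the control, and 3.72, 4.1 and 3.76-fold in stem and multipotent cells. A near-copy gene, Psme2b, had 7.46, 8.21 and 8.34 CPM, and its likeness to Psme2 may affect the counts of both. The nuclear activator Psme3 showed the opposite pattern, with 119, 103 and 114 CPM in erythroid progenitors and 31.2, 36.5 and 32.4 CPM in basophils and mast cells. Psme4, an activator known for the turnover of acetylated histones in spermatids, was highest in the B lineage gate, at 123, 53.3 and 129 CPM in few cells. The assembly chaperones Psmd5 and Psmd9 were highest in erythroid cells, with means of 71.8 and 84.1 CPM, and Psmd10 in plasmacytoid dendritic cells, with 64.2 CPM.

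The ratio of core to regulatory particle UMIs also differed between gates. It was 1.59 (1.56 to 1.61) in erythroid progenitors of the Lztr1 knockout, 1.598 (1.58 to 1.62) in those of Rit1-M90I and 1.62 (1.6 to 1.64) in those of the control. In early neutrophils it was 1.97 (1.92 to 2.03), 2.02 (1.997 to 2.05) and 2.09 (2.06 to 2.13), and in monocytes 2.03, 2.08 and 2.08. The erythroid ratio was the lowest of these 3 gates in all 3 libraries, and its intervals did not overlap theirs.

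Within gates, cycling cells had the higher constitutive levels before depth was evened out. A cell was called cycling with at least 3 of 8 cell cycle markers and non-cycling with 0, and both were compared within a gate and library that held at least 20 of each, which gave 14 pairs. The median log2 ratio of the 31 constitutive subunits, cycling over non-cycling, was above 0 in 14 of 14, between 0.15 and 0.80, while the median of all genes lay between -0.13 and 0.05. The largest were in erythroid progenitors, at 0.54 in the Lztr1 knockout, 0.80 in Rit1-M90I and 0.76 in the control, where 31 of 31 subunits were above 0 in each library. Over all UMIs the constitutive sum of cycling erythroid cells, 6703, 6727 and 7283 CPM in that order, was the highest of the gates compared. Among non-cycling cells it was not the highest in Rit1-M90I or in the control. In the Lztr1 knockout it was 4420 CPM in 40 cells, against 4456 CPM in 21 lymphoid progenitors, too close to rank. Early neutrophils and the monocyte gate of that library held fewer than 20 non-cycling cells and were not compared. In Rit1-M90I the erythroid sum was 3732 CPM, against 5282 CPM in early neutrophils and 5131 CPM in the monocyte gate. The control had 4185 CPM, against 5303 and 5402 CPM. The deubiquitinase Psmd14, Psmd13, Psmd1 and Psmb2 were higher in cycling cells in 14 of 14 pairs, and Psme1 in 1 of 14. In erythroid progenitors the immunoproteasome sum was the lower in cycling cells, at 232 against 384 CPM in the Lztr1 knockout, 195 against 365 CPM in Rit1-M90I and 248 against 418 CPM in the control. Those ratios were 0.60 (0.50 to 0.73), 0.54 (0.47 to 0.62) and 0.59 (0.53 to 0.66), whereas in the other 11 pairs the ratio lay between 0.95 and 1.22.

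Depth moved with this split. Cycling cells held 1.45 to 3.67 times the UMIs of non-cycling cells, and in erythroid progenitors 23679 against 7879 UMIs per cell in the Lztr1 knockout, 19451 against 5809 in Rit1-M90I and 20598 against 6250 in the control. With every cell thinned to 2000 UMIs before it was called, the constitutive median was above 0 in 11 of the 14 pairs that then qualified. It was 0.51, 0.57 and 0.53 in erythroid progenitors, 0.21, 0.40 and 0.23 in basophils and mast cells, but 0.06, -0.05 and 0.07 in early neutrophils and -0.11, 0.00 and -0.03 in monocytes. The erythroid immunoproteasome ratio after thinning was 0.72 (0.50 to 1.02), 0.53 (0.41 to 0.69) and 0.61 (0.49 to 0.75).

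**Figure D3:**
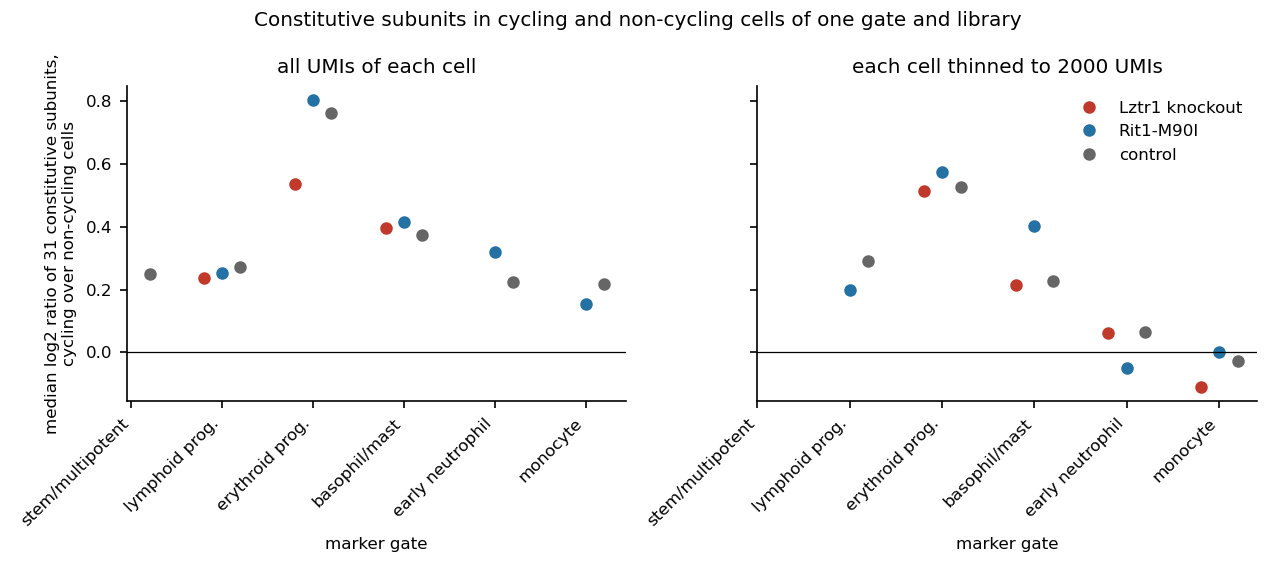
Median log2 ratio of the 31 constitutive subunits between cycling and non-cycling cells (y axis) in each gate (x axis) and library (red, Lztr1 knockout; blue, Rit1-M90I; grey, control), with all UMIs (left) and with cells thinned to 2000 UMIs (right). Points are single libraries, shown where at least 20 cells of each kind were found, so stem and multipotent cells have a point for the control alone, on the left. The erythroid points are the highest in both panels, and the monocyte points lie around 0 on the right.

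Between genotypes no measured member differed by 1.5-fold over all kept cells. That is 0 of 41 between the Lztr1 knockout and the control, where 0.540% of all genes were, and 0 of 41 between Rit1-M90I and the control, where 0.545% were. The median log2 ratio of the constitutive subunits in the Lztr1 knockout was 0.00, beside 0.02 over all genes, and in Rit1-M90I it was -0.04, beside -0.05 over all genes. The constitutive sums were 5755 CPM in the Lztr1 knockout, 5607 CPM in Rit1-M90I and 5730 CPM in the control. The ratio of sums was 1.004 (0.998 to 1.01) for the Lztr1 knockout and 0.98 (0.97 to 0.98) for Rit1-M90I.

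In the Lztr1 knockout the 3 lowest ratios were those of the immunoproteasome genes. Psmb8 had 352 CPM in the Lztr1 knockout, against 406 CPM in the control, a ratio of 0.87 (0.85 to 0.89). Psmb9 had 153 and 169.6 CPM (0.90, 0.87 to 0.94) and Psmb10 105.0 and 114 CPM (0.92, 0.88 to 0.96) in the same libraries. Their partners Psmb5, Psmb6 and Psmb7 had ratios of 0.986, 0.989 and 1.005, with intervals that cover 1. The immunoproteasome share of catalytic UMIs was 50.9% (50.3 to 51.4) in the Lztr1 knockout, against 53.7% (53.4 to 54.1) in the control. The 3 highest ratios were those of Psme1 (406 and 359 CPM; 1.13, 1.11 to 1.16), Psme3 (81.9 and 72.5 CPM; 1.13, 1.07 to 1.19) and Psmd1, the largest scaffold of the regulatory particle (120.0 and 106.5 CPM; 1.13, 1.08 to 1.17). Of the 41 members 13 had an interval above 1 and 6 below as CPM, where 28.2% and 18.6% of all genes did. With TMM scaling 9 were above and 9 below, where 23.9% and 22.8% of all genes were, so the members' counts lie near those of all genes. Erythroid progenitors, where the immunoproteasome genes are low, made up 18.6% of Lztr1 knockout cells and 14.3% of control cells. Levels over all kept cells weight cells by their UMIs. The erythroid gate held 8535100 of 27617480 UMIs in the Lztr1 knockout and 17289877 of 62250764 in the control. With the 12 gates weighted equally the summed immunoproteasome log2 ratio was -0.05, against -0.18 over all kept cells. Equal weights raise the smallest gates and leave out cells in no gate, and the part of cell composition was not tested.

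Within gates the immunoproteasome sum was lower in the Lztr1 knockout in 5 of 6. It was 880 CPM in the Lztr1 knockout, against 1012 CPM in the control in the monocyte gate (0.87, 0.83 to 0.91), 793 and 847 CPM in early neutrophils (0.94, 0.90 to 0.98) and 252 and 272 CPM in erythroid progenitors (0.93, 0.88 to 0.98). The ratios of 0.94 (0.86 to 1.03) in lymphoid progenitors, 0.94 (0.85 to 1.03) in basophils and mast cells and 1.08 (0.95 to 1.22) in stem and multipotent cells had intervals that cover 1. Members past 1.5-fold were 0 of 41 in 5 of the gates, where 2.80% (lymphoid), 0.201% (erythroid), 0.829% (basophil and mast cell), 0.549% (early neutrophil) and 0.362% (monocyte) of all genes were. Psme1 was higher in the Lztr1 knockout in all 6 gates, from 1.08 (0.96 to 1.21) in basophils and mast cells to 1.32 (1.13 to 1.54) in stem and multipotent cells, and 6.94% of all genes were higher in all 6. Psma1, an alpha ring subunit, was lower in all 6, with ratios between 0.964 and 0.996 whose intervals all cover 1, as were 4.93% of all genes. Psme1 and the immunoproteasome sum thus differed from the control in opposite directions in the erythroid, early neutrophil and mixed monocyte gates.

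For the constitutive subunits the Lztr1 knockout lay above the control in stem and multipotent cells and in early neutrophils (1.03, 1.01 to 1.04) and below it in erythroid progenitors, a difference between gates that was not tested. The sum was 4847 CPM in stem and multipotent cells of the Lztr1 knockout and 4185 CPM in those of the control (1.16, 1.10 to 1.22), with a median log2 ratio of 0.25. Early neutrophil markers summed to 1458 CPM in that gate of the Lztr1 knockout, 927 CPM in Rit1-M90I and 1163 CPM in the control, with 2, 1 and 2 of 8 at 0. Stroma and endothelium markers summed to 185, 44.0 and 31.6 CPM in the same order, and their part in the result was not tested. Psmd6 (121 and 72.5 CPM) and Psmd13 (114 and 65.7 CPM), both of the regulatory particle lid, were past 1.5-fold there, in a gate of 49 and 197 cells where 11.0% of all genes were. In erythroid progenitors the sum was 6437 CPM in the Lztr1 knockout, against 6923 CPM in the control (0.93, 0.92 to 0.94), and 3 of 31 subunits were above 0 on the log2 scale. Cycling cells were 34.7% of stem and multipotent cells of the Lztr1 knockout and 15.2% of those of the control, and 73.0% and 70.4% of erythroid progenitors, where the sum was lower. In cells with none of the cycling markers the ratio of sums was 1.05 (0.93 to 1.17) in stem and multipotent cells and 1.06 (0.99 to 1.12) in erythroid progenitors, and both intervals cover 1 in what were 14 and 40 Lztr1 knockout cells.

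In Rit1-M90I the lowest ratios were those of regulatory particle genes and of Psme3. Psmd7 had 169.8 CPM in Rit1-M90I and 204 CPM in the control (0.83, 0.81 to 0.85), Psme3 had 60.5 and 72.5 CPM (0.83, 0.80 to 0.87) and Psmd3 had 69.6 and 81.2 CPM (0.86, 0.82 to 0.89). The highest were Psme1 (386 and 359 CPM; 1.08, 1.06 to 1.09), Psmc6, an ATPase (129 and 121 CPM; 1.07, 1.04 to 1.10), and Psma7 (583 and 546 CPM; 1.07, 1.05 to 1.08). These 6 kept their side of 1 with TMM scaling, which gave 0.87, 0.87 and 0.89 for the lowest and 1.12, 1.11 and 1.11 for the highest. Of the 41 members 6 had an interval above 1 and 21 below as CPM, where 17.5% and 46.8% of all genes did. With TMM scaling 14 were above and 11 below, where 29.4% and 27.8% of all genes were, so these counts too lie near those of all genes. Erythroid progenitors, in which Psmd7, Psmd3 and Psme3 are highest, made up 9.80% of Rit1-M90I cells and 14.3% of control cells. Their part in these ratios was not tested. Within the erythroid gate Psmd7 had 281 CPM in Rit1-M90I and 335 CPM in the control, and within early neutrophils 190.0 and 198 CPM.

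Within gates, 7 of the 41 members (17.1%) were lower in Rit1-M90I in all 6, where 7.82% of all genes were, and none was higher in all 6, where 3.81% were. They are Psma1, Psma6, Psmb6, Psmb7, Psmb8, Psmb9 and Psme2, and 4 of them (Psmb6, Psmb7, Psmb8 and Psmb9) were below the median gene of the gate in all 6, where 5.17% of all genes were. Psme1 was the 1 member above the median gene in all 6, where 5.25% of all genes were. The immunoproteasome sum was lower in each gate, most in erythroid progenitors with 214 CPM in Rit1-M90I and 272 CPM in the control (0.79, 0.75 to 0.82). The other 5 ratios lay between 0.88 (0.85 to 0.91) in monocytes and 0.93 (0.91 to 0.96) in early neutrophils. Psmb9 had 54.4 CPM in erythroid progenitors of Rit1-M90I and 71.7 CPM in those of the control, and 81.9 and 102.5 CPM in basophils and mast cells. Over all kept cells the sum was 677.5 CPM in Rit1-M90I and 689.9 CPM in the control (0.98, 0.97 to 0.99), on the log2 scale -0.03 as CPM and 0.03 with TMM scaling. Early neutrophils, whose immunoproteasome sum lies above that of all kept cells, were 17.0% of Rit1-M90I cells and 10.2% of control cells. Their part in the ratio over all kept cells was not tested.

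The constitutive sum of Rit1-M90I was lower in lymphoid progenitors, with 4178 CPM against 4889 CPM in the control (0.85, 0.83 to 0.88), in stem and multipotent cells (0.93, 0.89 to 0.98), in erythroid progenitors (0.93, 0.92 to 0.93) and in monocytes (0.93, 0.91 to 0.94). It was higher in early neutrophils, with 6383 against 6005 CPM (1.06, 1.05 to 1.07). In cells without cycling markers the lymphoid ratio was 0.87 (0.82 to 0.93) and the erythroid one 0.89 (0.85 to 0.94). The ratios of 0.94 (0.87 to 1.01) in stem and multipotent cells and 0.95 (0.87 to 1.03) in monocytes had intervals that cover 1. So did the neutrophil one, 0.996 (0.94 to 1.05). Psmd3 in stem and multipotent cells, with 39.3 CPM in Rit1-M90I and 74.3 CPM in the control, was the 1 member past 1.5-fold in any of the 6 gates, and 4.78% of all genes were past it in that gate. In the other gates 0 of 41 were, against 2.13% (lymphoid), 0.347% (erythroid), 0.439% (basophil and mast cell), 0.586% (early neutrophil) and 0.540% (monocyte) of all genes.

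**Figure D4:**
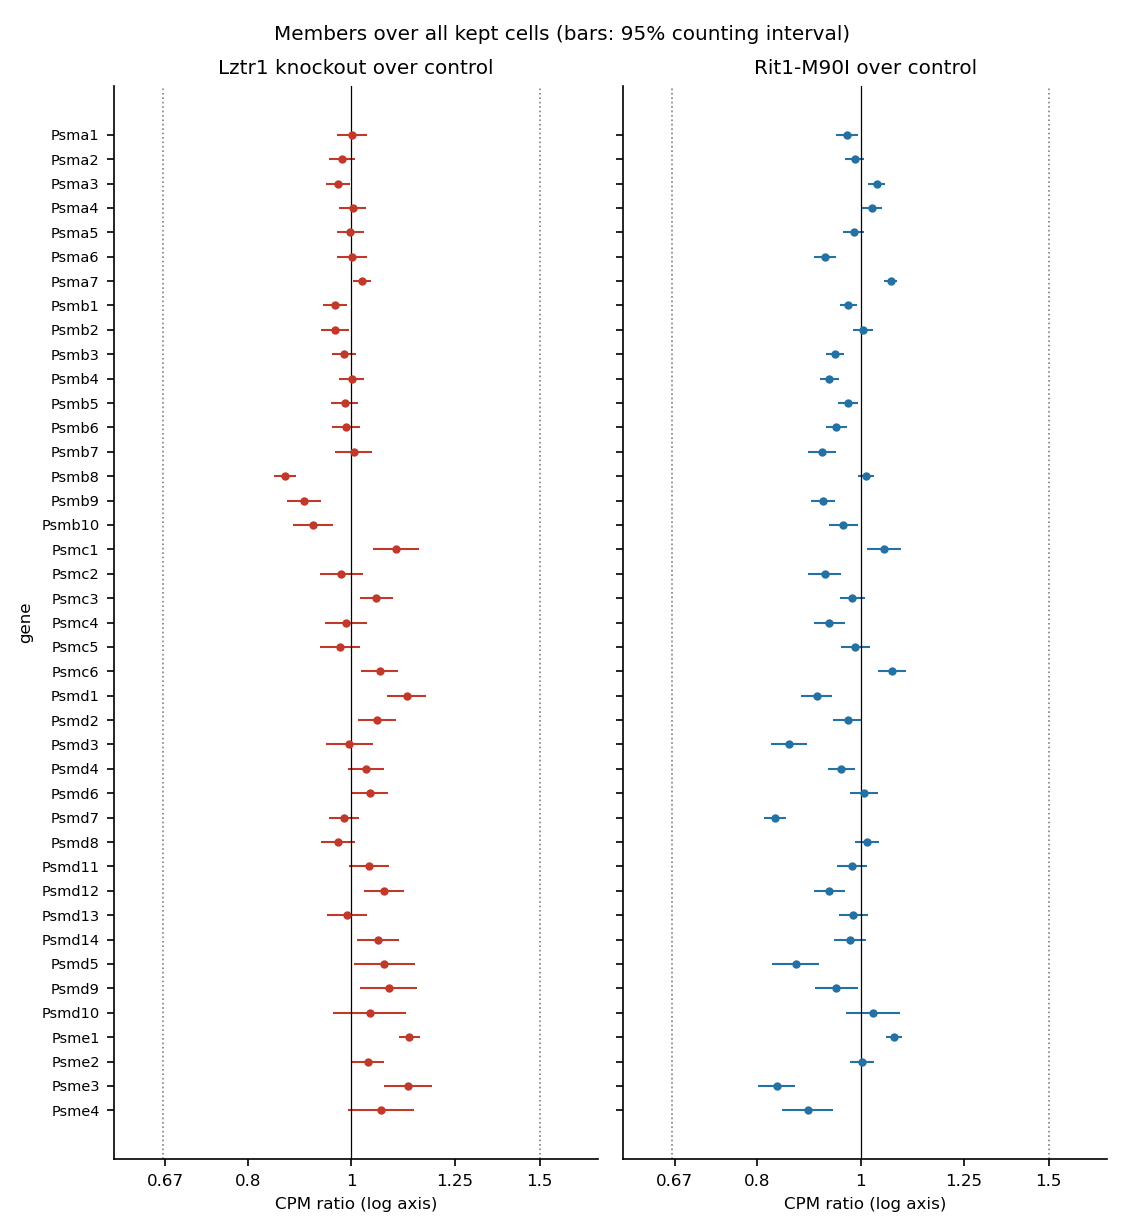
CPM ratio of each of the 41 measured members (rows) over all kept cells, for the Lztr1 knockout over the control (left, red) and Rit1-M90I over the control (right, blue), on a log axis with exact 95% counting intervals. Dotted lines mark 1.5-fold either way, and no member reaches them. Both panels share the control library.

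**Figure D5:**
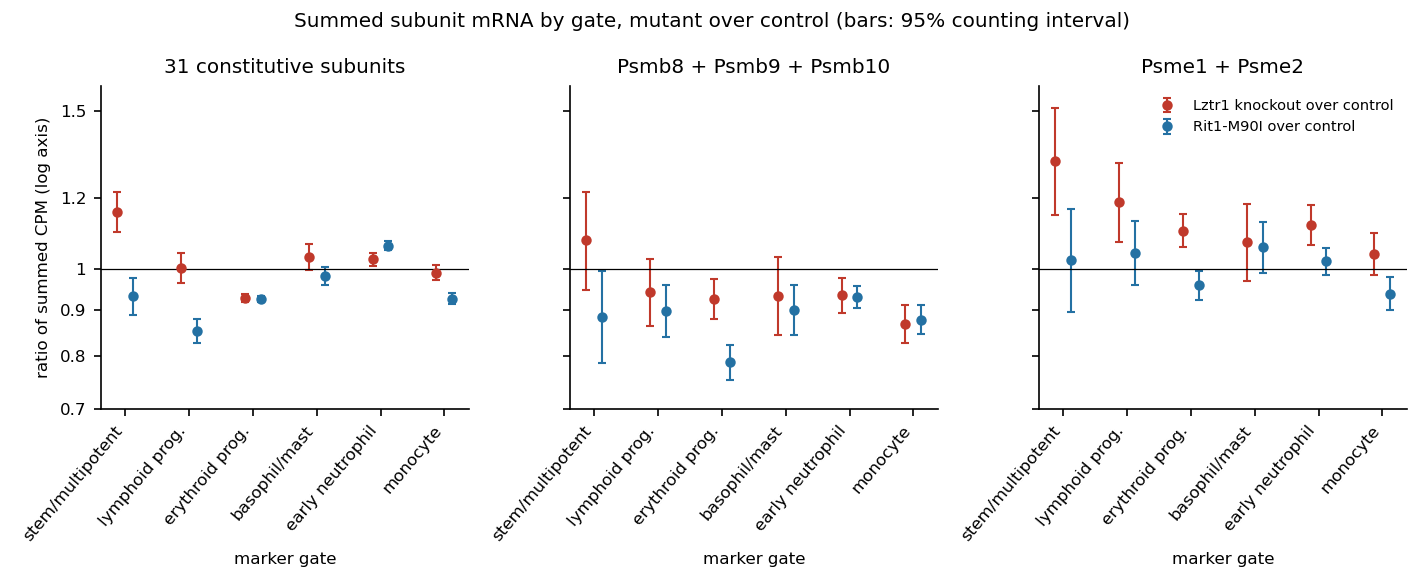
Ratio of summed CPM, mutant over control, in 6 gates (x axis) for the 31 constitutive subunits, for Psmb8 with Psmb9 and Psmb10, and for Psme1 with Psme2 (log axes, 95% counting intervals). Red is the Lztr1 knockout and blue is Rit1-M90I. The blue immunoproteasome points all lie below 1, and the red points of Psme1 with Psme2 all lie above it.

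Other genes of the pathway were taken from 4 lists. Of the 13 assembly and associated factors none was past 1.5-fold in either comparison. On the log2 scale with 10 CPM added, the highest in the Lztr1 knockout were Psmg2, an alpha ring assembly chaperone (1.15, 1.09 to 1.21), and the proteasome-bound deubiquitinase Usp14 (1.13, 1.08 to 1.19), and the lowest were Sem1, a small lid subunit (588 and 649 CPM; 0.91, 0.89 to 0.92), and Zfand5 (0.94, 0.89 to 0.99). In Rit1-M90I Sem1 was the highest (711 against 649 CPM; 1.10, 1.08 to 1.11), followed by Uchl5 (1.05), and Psmg3 (0.88, 0.84 to 0.92) and Zfand5 (0.90) were the lowest. The inhibitor Psmf1, at 31.8 CPM in the Lztr1 knockout against 27.4 CPM in the control, had a ratio of 1.16 (1.07 to 1.26). Sem1 lay on opposite sides of the control in the mutants. Of 8 genes that control proteasome transcription 6 were measured and none was past 1.5-fold. The transcription factors Nfe2l1 (39.1 and 34.8 CPM; 1.12, 1.04 to 1.21) and Nfe2l2 (1.11, 1.05 to 1.17) were the highest in the Lztr1 knockout, and the protease Ddi2, which activates Nfe2l1, was the lowest in Rit1-M90I (39.5 and 47.1 CPM; 0.84, 0.80 to 0.88).

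Of 13 ubiquitin and shuttle genes 12 were measured. In the Lztr1 knockout 1 of them was more than 1.5-fold higher and 1 lower, where 0.540% of all genes were past 1.5-fold. In Rit1-M90I 1 was lower, where 0.545% of all genes were past it. The lower genes are not reported here. The higher one, the polyubiquitin gene Ubb, had 2194 CPM in the Lztr1 knockout (1.92, 1.90 to 1.94), 1134 CPM in Rit1-M90I and 1145 CPM in the control. Its coding repeats are near-identical to those of other ubiquitin genes, so reads may have been exchanged between them. The shuttle factor Rad23b had a ratio of 1.09 (1.04 to 1.15) in the Lztr1 knockout. Another shuttle factor, Ubqln1, had a ratio of 0.88 (0.83 to 0.93) in Rit1-M90I. Of 17 interferon and class I genes 8 were measured and none was past 1.5-fold. Irf1, which drives Psmb8 and Psmb9 under interferon, had 20.7 CPM in the Lztr1 knockout (0.77, 0.70 to 0.85), 24.3 CPM in Rit1-M90I and 26.7 CPM in the control. Within gates, Irf1 of the Lztr1 knockout and the control was compared only in erythroid and lymphoid progenitors. Whether it was lower in the other gates was not tested. Its erythroid levels (3.87 CPM, against 3.70 CPM for the control) lie far under the 20 CPM filter, too low to show a difference. In lymphoid progenitors it was not lower (63.1 and 42.7 CPM in the same order). Erythroid progenitors were 18.6% and 14.3% of the cells of these libraries, and their part in the ratio was not tested. Tap2, a subunit of the peptide transporter, was next lowest in the Lztr1 knockout (0.82, 0.78 to 0.87), whereas B2m, the light chain of MHC class I, had a ratio of 1.04 (1.03 to 1.05) there. In Rit1-M90I Tap1 (0.84, 0.81 to 0.88) was the lowest, and Tapbp (0.94) and Erap1 (0.96) were the highest. The erythroid gate was the lowest of the 6 in all 3 libraries for 6 of the 8 (Irf1, Tap1, Tap2, Tapbp, B2m and Erap1), as it was for Psmb8 and Psmb9 and for 16.7% of all genes.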

How the data were processed

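As deposited by the authors, the values are unnormalized UMI counts from Cell Ranger 6.1.1, per the file headers. The submitters' processing notes name mm10 as the build and Seurat 4.1.0 as a tool. Barcodes were kept at 1000 UMIs, 500 genes and at most 10% mitochondrial UMIs. This removed 19.6% in the Lztr1 knockout, 15.2% in Rit1-M90I and 11.2% in the control. Scrublet in scanpy 1.11.5 then removed 84, 466 and 261 doublets in that order. Marker gates were built from 17 lists of 8 genes, and their thresholds were chosen after seeing the data. So was the scale without 395 immunoglobulin genes that is used between gates. Counts were summed per library and gate. Ratios are of CPM, and log2 ratios add 10 CPM to each value. Genes under 20 CPM on average were left out of counts. Counting intervals are exact Poisson for levels, exact conditional for ratios and Clopper-Pearson for shares, at 95% (scipy 1.17.1). TMM factors came from edgeR 4.0.16, which ran no test. Calculations were tested on simulated data. Genes named are the immunoproteasome genes and partners, the activators, Psma8, Psmb11, the 3 highest and 3 lowest ratios of each comparison, the highest and lowest level of each subcomplex, the members least like the constitutive median, and the 2 highest and 2 lowest of each pathway list. Some pathway genes are not reported here. Further genes were chosen after their values were seen. Members and lists were chosen with earlier results of these data known. Promoter windows come from RefSeq and gene bounds from GENCODE, both on GRCm38, and the authors' annotation release is unknown.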

Additional observations from a re-analysis of the deposited data

Results flagged for a closer look

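The summed CPM of the 31 constitutive proteasome subunits lay on opposite sides of the control in different gates of the same comparison. In the Lztr1 knockout the ratio to the control was 1.16 (1.10 to 1.22) in stem and multipotent cells and 0.93 (0.92 to 0.94) in erythroid progenitors. In Rit1-M90I the ratio was 1.06 (1.05 to 1.07) in early neutrophils and 0.85 (0.83 to 0.88) in lymphoid progenitors. The differences between gates were not tested, because each genotype is 1 library. The share of cycling cells also differed. It was 34.7% in stem and multipotent cells of the Lztr1 knockout, against 15.2% in those of the control, and 73.0% against 70.4% in erythroid progenitors. In Rit1-M90I it was 62.9% in early neutrophils, against 55.5% in the control, and 24.2% against 35.9% in lymphoid progenitors. Its part in the ratios was not tested beyond the values given for cells without cycling markers.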

How the results depend on the processing

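Over all kept cells 0 members passed 1.5-fold in either comparison under every alternative run. The constitutive median log2 ratio of the Lztr1 knockout, 0.00 as reported, was -0.0095 with every deposited barcode, -0.017 with TMM scaling, 0.047 with 12 gates weighted equally and 0.022 with cells thinned to 2000 UMIs. That of Rit1-M90I, -0.04 as reported, was 0.018, -0.072 and -0.027 under the last 3 of these. The summed immunoproteasome log2 ratio of the Lztr1 knockout, -0.18, was -0.053 with gates weighted equally. That of Rit1-M90I, -0.03, was 0.030 with TMM scaling, -0.12 with gates weighted equally and -0.085 with thinned cells. The immunoproteasome share in the Lztr1 knockout, Rit1-M90I and control libraries was 51.5, 54.9 and 54.3% with a stricter cell filter, 60.8, 60.9 and 60.3% with gates weighted equally, and 55.9, 58.5 and 58.6% with thinned cells. The cycling median of 0.30 was 0.21 with thinned cells and 0.365 with a stricter gate. The cause was not tested for any of these. Within gates, 3 of 12 constitutive medians changed sign with a stricter gate and 5 of 12 with only cells without cycling markers, and the largest moves of the 12 were 0.13 and 0.22. Of 36 immunoproteasome shares by gate, 32 stayed within their interval with a stricter gate, and the largest move was 7.66 points. Leaving out immunoglobulin UMIs and keeping only cells without cycling markers were chosen after seeing the data. No paired analysis was possible because each genotype has 1 library, and no library could be left out for the same reason. Intervals cover counting error only, and the spread between mice cannot be told apart from the difference between genotypes. The smallest gates hold 14 to 39 cells of the Lztr1 knockout, and single members there rest on few UMIs.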
